A study of Mus musculus with 2 samples.

Results

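The MAP kinase cascade and the dual-specificity phosphatases were examined in CD80high and CD80low marginal zone B cells of the mouse spleen. The genes were taken by symbol, as every row of the deposited comparison whose symbol begins with Mapk, Map2k, Map3k, Map4k or Dusp followed by a digit. This gave 73 of the 21829 gene symbols in the table. They comprise 6 ERK genes, 3 JNK genes, 4 p38 genes, 7 MAP2K genes, 18 MAP3K genes, 5 MAP4K genes, 10 phosphatases that act on MAP kinases, 14 atypical dual-specificity phosphatases and 6 adaptor or other genes that share the symbols. The last 6 include the JNK scaffold genes Mapk8ip1 to Mapk8ip3, which are not kinases.

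Both groups were primary splenic B cells from male C57BL/6 mice, wild type and untreated. CD80, a costimulatory surface protein, divided the cells, and each population had 1 library of messenger RNA. The sources used here give neither the age of the mice, nor how many animals a library holds, nor which further markers the sort used. No difference below therefore has a replicate check, and no test of the populations was possible.

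A MAP kinase cascade passes a signal through kinases that phosphorylate each other in turn. MAP4K and MAP3K proteins sit at the top, MAP2K proteins in the middle, and the MAP kinases ERK, JNK and p38 at the end, where they phosphorylate transcription factors and other kinases. Dual-specificity phosphatases remove phosphate from both the threonine and the tyrosine of an active MAP kinase, and several of their genes are themselves switched on by the cascade. In B cells the antigen receptor, CD40 and Toll-like receptors all feed into these cascades.

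The 3 MAP kinase families are told apart by the residue between the phosphorylated threonine and tyrosine of the activation loop. The coding stretches below show this triplet of codons in capitals, for Mapk3 as an ERK gene, for the most abundant JNK and p38 genes, and for Mapk12, the measured member that was lowest in CD80high relative to CD80low. They were read 5′ to 3′ from the longest complete coding transcript of each gene in GENCODE M21, on the coding strand, and lie on chromosomes 7, 11, 17 and 15. The middle codon encodes glutamate in the ERK gene, proline in the JNK gene and glycine in both p38 genes.
Mapk3 (ERK1): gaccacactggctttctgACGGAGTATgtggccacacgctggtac
Mapk9 (JNK2): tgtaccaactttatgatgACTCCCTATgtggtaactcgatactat
Mapk14 (p38 alpha): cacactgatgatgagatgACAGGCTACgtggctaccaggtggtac
Mapk12 (p38 gamma): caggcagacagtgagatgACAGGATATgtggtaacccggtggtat

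Levels are given as FPKM, which divides the fragments of a gene by transcript length and by library size, so that genes can be compared with each other. The ratio used for every gene was log2((CD80high FPKM + 1)/(CD80low FPKM + 1)), in which the added 1 FPKM draws low genes towards 0. A gene counted as measured at a mean of at least 1 FPKM over both libraries. Folds are quotients of the FPKM values themselves. Their approximate 95% intervals are exact conditional intervals on fragment numbers estimated from the steps of low FPKM values, about 23200000 fragments in CD80high and 23100000 in CD80low. The intervals cover counting error only.

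Of the 73 genes, 55 were measured, 9 had a value above 0 but a mean under 1 FPKM, and 9 were listed at 0 in both libraries. The genes at 0 in both libraries were Mapk10 (JNK3), Mapk15, Map3k21, Map3k7cl, Dusp13, Dusp15, Dusp21, Dusp26 and Dusp27. The median level of the measured genes was 17.5 FPKM, against 15.99 FPKM over all 9955 measured genes. Among the 5 members with a mean of at least 100 FPKM were Dusp1, Dusp2, Map4k1 and Map4k2.

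**Figure D1:**
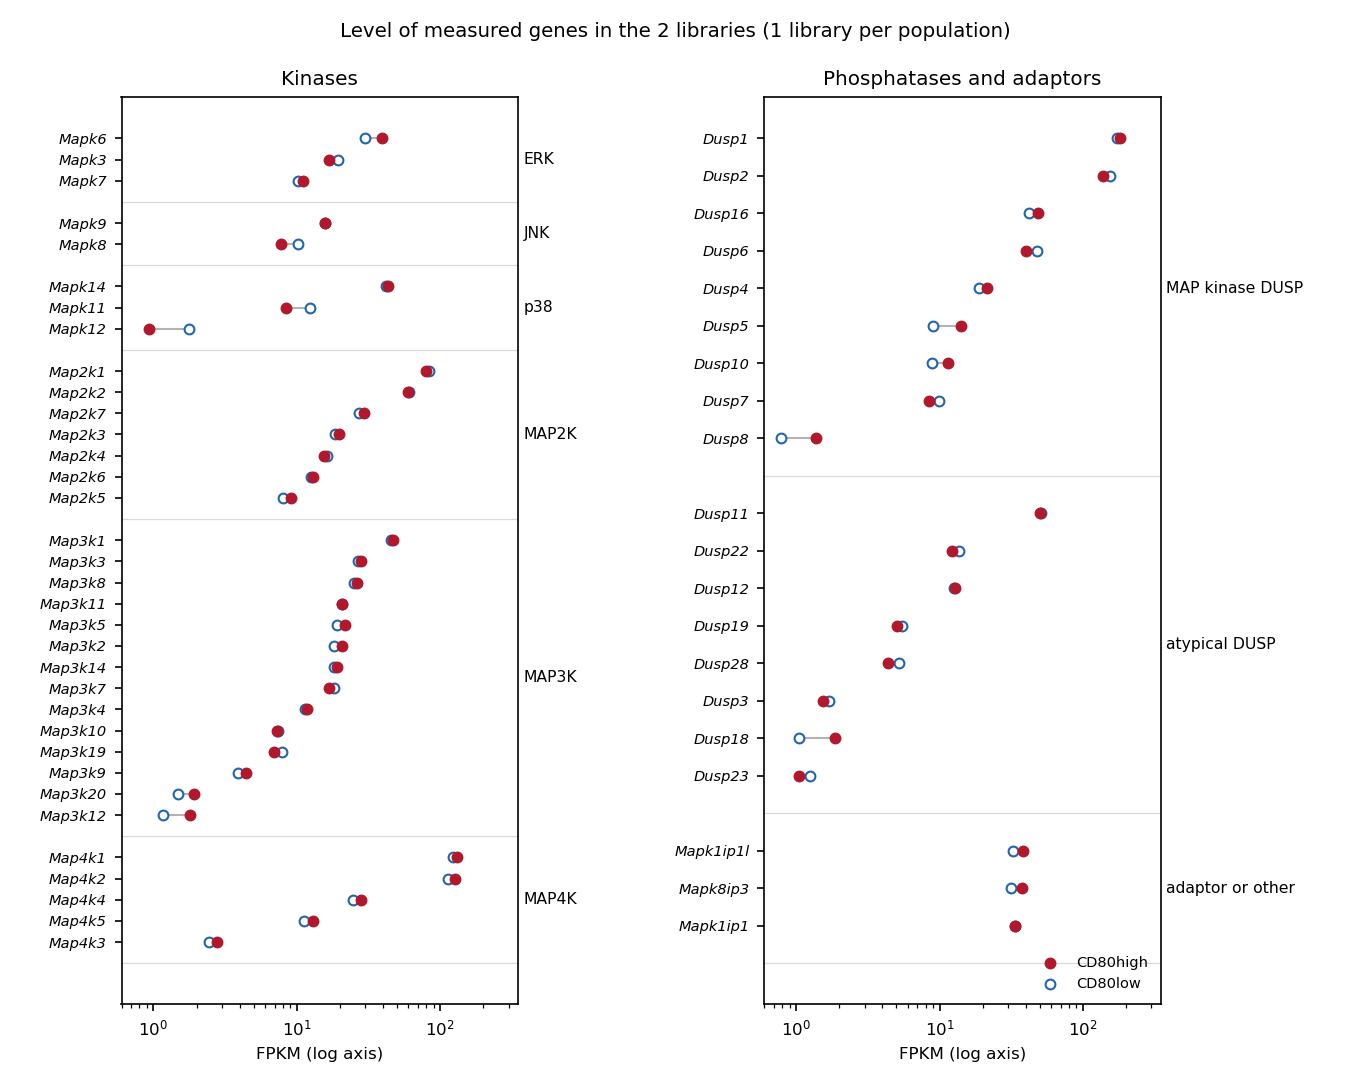
FPKM (log axis) of 54 of the 55 measured genes in CD80high (filled red) and CD80low (open blue), ordered by mean level within each role, with 1 library per population. The 2 points of a gene lie close together for most genes, and the widest gaps are those of Mapk12, Dusp18, Dusp8, Dusp5 and Map3k12.

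The cascade as a whole was nearly level between the 2 populations. None of the 55 genes differed by 2-fold, where 0.352% of all measured genes were at least 2-fold higher in CD80high and 0.1% at least 2-fold lower. None reached 1.5-fold either, against 1.51% higher and 0.894% lower over all measured genes. Beside background shares this small, counts of 0 among 55 genes do not set the cascade apart. The median ratio was 0.05, against -0.02 over all measured genes, and 34 of the 55 were higher in CD80high, where 46.4% of all measured genes were higher and 53.5% lower. When both libraries were rescaled to the mean of their FPKM totals, which moved the median of all genes by 0.14 (log2), 45 of the 55 were higher, against 73.8% of all measured genes.

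A smaller size, 1.2-fold, was counted after the values were seen. On that scale 6 of the 55 genes were higher in CD80high and 3 lower, against 8.31% and 11.4% of all measured genes. The share of higher genes was a little above the background and that of lower genes under it. Counts this small do not set the cascade apart. The 6 higher genes were Dusp5, Dusp18, Dusp8, Mapk6, Map3k12 and Dusp10, and the 3 lower genes were Mapk12, Mapk11 and Mapk8. By the quotient of the FPKM values themselves, 4 genes were at least 1.5-fold higher (Dusp18, Dusp8, Dusp5 and Map3k12) and Mapk12 at least 1.5-fold lower, where 2.53% and 1.82% of all measured genes were. Among these 5, Dusp5 alone had more than 2 FPKM in either library.

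**Figure D2:**
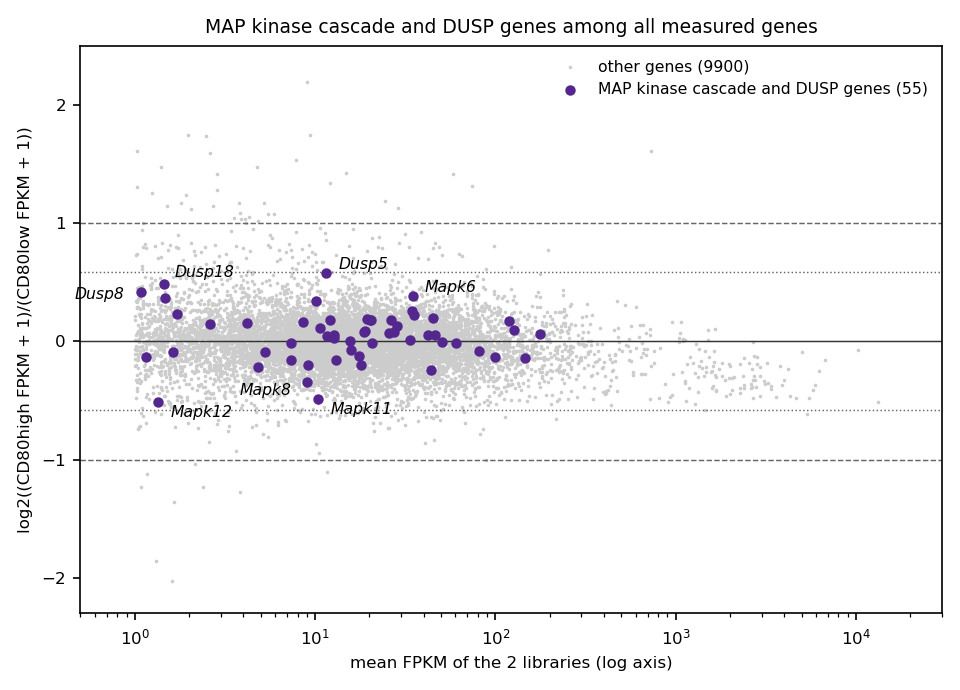
Ratio of each measured gene on the log2 scale (vertical axis) against its mean FPKM (log axis), with 55 MAP kinase cascade and phosphatase genes in purple and 9900 other genes in grey. Dashed lines mark 2-fold and dotted lines 1.5-fold, and the purple points all lie between the dotted lines, from -0.52 for Mapk12 to 0.58 for Dusp5.

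In the ERK family, the classical kinase gene Mapk3 was slightly lower in CD80high and Mapk6, the gene of the atypical kinase ERK3, was higher. Mapk3, which encodes ERK1, had 16.7 FPKM in CD80high cells and 19.3 in CD80low cells. Mapk7, the gene of ERK5, a large kinase with its own MAP2K, stood at 11.1 FPKM in CD80high cells and 10.2 in CD80low cells.

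Mapk6 encodes ERK3, an unstable kinase whose loop carries a serine and lacks the tyrosine (chromosome 9, 75369062 to 75410005, minus strand, GENCODE M21 on GRCm38, the assembly of mm10). It had 39.4 FPKM in CD80high cells and 30.1 in CD80low cells. The CD80high value was 1.31-fold higher, with an interval of 1.248 to 1.38, on about 3729 fragments in CD80high and 2832 in CD80low. Mapk4, the gene of the related ERK4, was listed at 0.00847 FPKM in CD80high cells and 0.0223 in CD80low cells.

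JNK transcripts came from Mapk9 and Mapk8. Mapk9 (JNK2) was nearly equal in the populations, at 15.7 FPKM in CD80high cells and 15.6 in CD80low cells, a fold of 1.005 with an interval of 0.939 to 1.08. Mapk8 (JNK1; chromosome 14, 33377898 to 33447158, minus strand) had 7.78 FPKM in CD80high cells and 10.2 in CD80low cells, 1.31-fold lower in CD80high (1.11 to 1.53). JNK2 thus made up 66.9% of JNK transcript in CD80high and 60.6% in CD80low.

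In the p38 family the main gene was level and both other measured genes were lower in CD80high. Mapk14 encodes p38 alpha, the form that most cells use, and had 43.3 FPKM in CD80high cells and 41.7 in CD80low cells (fold 1.04, 0.986 to 1.09). Mapk11 encodes p38 beta (chromosome 15, 89142486 to 89149628, minus strand). It had 8.47 FPKM in CD80high cells and 12.3 in CD80low cells, 1.45-fold lower in CD80high (1.29 to 1.64). Mapk12 encodes p38 gamma, best known from skeletal muscle, and had 0.932 FPKM in CD80high cells and 1.76 in CD80low cells, 1.89-fold lower (1.28 to 2.89). Mapk13, the gene of p38 delta, was listed at 0.0142 FPKM in CD80high and 0 in CD80low.

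The 2 lower p38 genes are neighbours on the same strand of chromosome 15. Mapk12 ends at 89140703 and Mapk11 begins at 89142486, with 1782 bases between them in GENCODE M21. Within the family, p38 alpha made up 82.1% of transcript in CD80high and 74.8% in CD80low, and p38 beta 16.1% and 22.1%. The quotient of Mapk14 to Mapk11 was 5.11 in CD80high and 3.39 in CD80low.

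**Figure D3:**
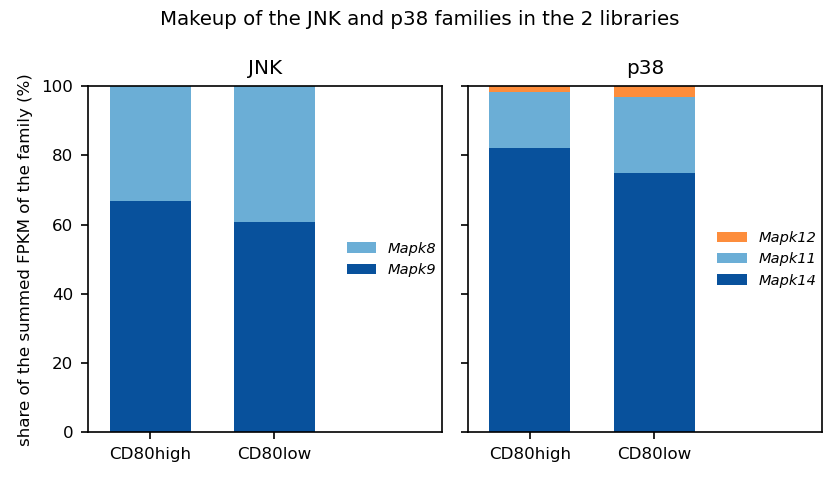
Share of the summed FPKM of the JNK and p38 families contributed by each measured gene, in CD80high (left bar) and CD80low (right bar), with 1 library each. Mapk14 takes 82.1% of p38 in CD80high and 74.8% in CD80low, and Mapk9 takes 66.9% and 60.6% of JNK.

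All 7 MAP2K genes were measured and all lay within 1.2-fold. The most abundant were Map2k1 and Map2k2, which encode MEK1 and MEK2, the kinases of the classical ERK proteins. Map2k1 had 79.3 FPKM in CD80high cells and 83.9 in CD80low cells (fold 0.946, 0.907 to 0.985), and Map2k2 had 60.01 FPKM in CD80high cells and 60.5 in CD80low cells (fold 0.993, 0.935 to 1.05). The ratios of both were below 0 as deposited and above 0 after rescaling, at 0.07 for Map2k1 and 0.14 for Map2k2. Rescaling also set the median of all measured genes at 0.12. The kinases of JNK were Map2k7, at 29.6 FPKM in CD80high cells and 27.1 in CD80low cells, and Map2k4, at 15.4 FPKM in CD80high cells and 16.3 in CD80low cells. Map2k7 shares 1349 exon bases on the same strand with Gm49320, so its values are uncertain. The kinases of p38 were Map2k3, at 19.6 FPKM in CD80high cells and 18.4 in CD80low cells, and Map2k6, at 13.0 FPKM in CD80high cells and 12.5 in CD80low cells. Map2k5, the kinase of ERK5, had 9.08 FPKM in CD80high cells and 7.99 in CD80low cells. The median ratio of this tier was 0.05.

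Of the 18 MAP3K genes, 14 were measured, and 10 of the 14 were higher in CD80high by small amounts (median ratio 0.07). Over all measured genes 46.4% were higher. Map3k1, a kinase acting on the JNK and ERK branches, had 47.0 FPKM in CD80high cells and 45.3 in CD80low cells (fold 1.04, 0.994 to 1.08). Map3k3, the kinase MEKK3, had 28.2 FPKM in CD80high cells and 26.6 in CD80low cells (fold 1.06, 0.999 to 1.13). Map3k8 (Tpl2), which links NF-kappaB1 p105 to ERK, had 26.3 FPKM in CD80high cells and 25.1 in CD80low cells.

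Kinases that connect surface receptors to NF-kappaB and JNK were also close. Map3k14 (NIK), the kinase of the non-canonical NF-kappaB pathway used by CD40 and the BAFF receptor, had 19.2 FPKM in CD80high cells and 18.2 in CD80low cells. Map3k7 (TAK1), a kinase shared by Toll-like receptors and the antigen receptor, had 16.7 FPKM in CD80high cells and 18.3 in CD80low cells, a ratio of -0.12. The stress kinase Map3k5 (ASK1) had 21.7 FPKM in CD80high cells and 19.1 in CD80low cells, and Map3k2 (MEKK2) 20.8 FPKM in CD80high cells and 18.1 in CD80low cells.

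The mixed-lineage kinases Map3k11 (20.6 FPKM in CD80high, 20.8 FPKM in CD80low), Map3k10 (7.33 and 7.42 FPKM) and Map3k9 (4.46 and 3.90 FPKM) and the kinase MEKK4, encoded by Map3k4 (11.8 and 11.4 FPKM), differed little. Map3k19 had 6.89 FPKM in CD80high cells and 7.83 in CD80low cells. Map3k20, the ribosome stress kinase ZAK, had 1.93 FPKM in CD80high cells and 1.49 in CD80low cells. Map3k12, a kinase known from neurons, was the member of this tier with the largest ratio, 0.36, at 1.79 FPKM in CD80high cells and 1.17 in CD80low cells (fold 1.53, 1.10 to 2.12). It shares 1573 exon bases with Pcbp2 on the opposite strand, which had 335 FPKM in CD80high cells and 343 in CD80low cells. The library kit keeps the strand, per the labels, but no source used here says whether counting did, so the values of Map3k12 are uncertain.

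In the MAP4K tier all 5 genes were measured and all 5 were higher in CD80high, where 46.4% of all measured genes were higher. Their ratios ran from 0.09 to 0.18, with a median of 0.17. The median transcript length of the tier was 3759 nucleotides, against 2084 over all measured genes. After adjustment for transcript length the median ratio was 0.12, against 0 over all measured genes, and all 5 stayed higher. Map4k1 (HPK1), a kinase of blood cells that restrains antigen receptor signalling, had 131.6 FPKM in CD80high cells and 123 in CD80low cells (fold 1.07, 1.04 to 1.10). Map4k2, a kinase that acts on the JNK branch, had 126.7 FPKM in CD80high cells and 113 in CD80low cells (fold 1.13, 1.09 to 1.16). Map4k4 had 28.0 FPKM in CD80high cells and 24.7 in CD80low cells, Map4k5 had 12.9 FPKM in CD80high cells and 11.3 in CD80low cells, and Map4k3 had 2.80 FPKM in CD80high cells and 2.43 in CD80low cells. Every MAP4K difference was under 1.2-fold.

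**Figure D4:**
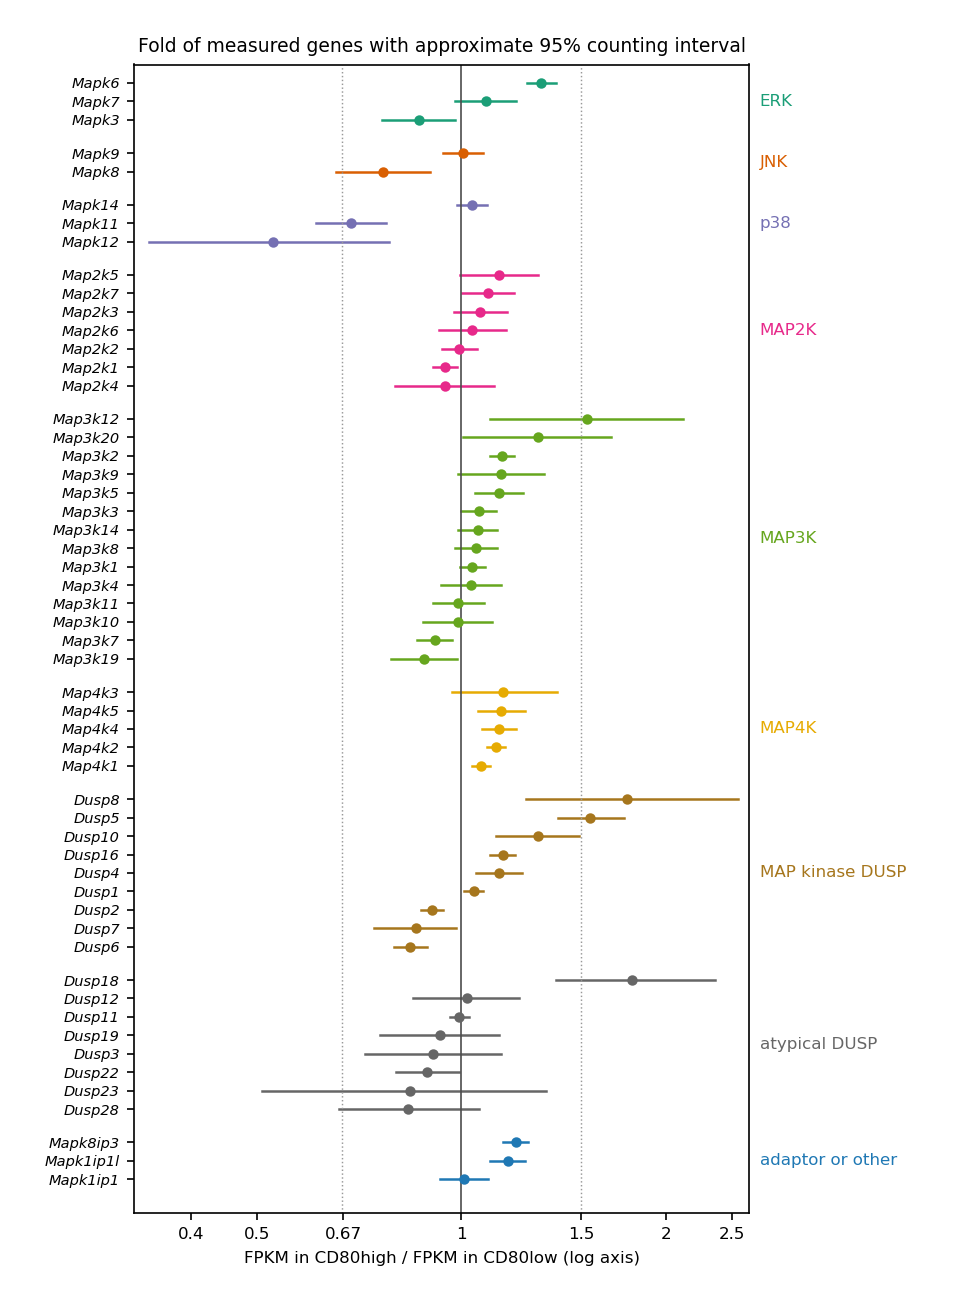
Quotient of the FPKM values, CD80high over CD80low (log axis), for 54 of the 55 measured genes by role, with approximate 95% intervals that cover counting error only. The solid line marks equality and the dotted lines 1.5-fold: Dusp18, Dusp8, Dusp5 and Map3k12 lie beyond the right dotted line and Mapk12 beyond the left one.

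The phosphatases that act on MAP kinases included the member of highest level, Dusp1, and that of highest ratio, Dusp5. The nuclear phosphatase genes Dusp1 and Dusp2 are immediate early genes, and Dusp2 was first known from activated lymphocytes. Dusp1 had 181 FPKM in CD80high cells and 173 in CD80low cells (fold 1.04, 1.01 to 1.08), rank 359 of the 9955 measured genes by mean level. Dusp2 had 139 FPKM in CD80high cells and 153 in CD80low cells (fold 0.905, 0.872 to 0.940). After rescaling its ratio was 0.01, beside a median of 0.12 over all measured genes. Genes of cell handling and stress summed to 8411 FPKM in CD80high cells and 8034 in CD80low cells, a sum carried by its most abundant genes, and 12 of the 16 were higher in CD80high. By at least 1.2-fold, 5 of the 16 were higher and 0 lower, against 8.31% and 11.4% of all measured genes. These were Atf3 (85.3 FPKM in CD80high, 31.4 FPKM in CD80low), Egr1 (70.1 and 50.6 FPKM), Fosb (527 and 417 FPKM), Hsph1 (144.5 and 110.6 FPKM) and Dnajb1 (187 and 153 FPKM). Their part in the values of Dusp1, Dusp2 and the other inducible phosphatase genes was not tested.

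Phosphatases with a preference for ERK differed in opposite directions. Dusp5, a nuclear phosphatase that removes phosphate from ERK and holds it in the nucleus (plus strand of chromosome 19, 53529109 to 53542431), stood at 14.02 FPKM in CD80high cells and 9.06 in CD80low cells. Its ratio of 0.58 was the highest of the 55 genes, and its fold was 1.55 (1.39 to 1.73). An antisense gene, AC137853.2, shares 547 exon bases with it, and its fragments cannot be told apart if counting ignored the strand. Dusp6 (MKP-3), a cytoplasmic phosphatase of ERK, had 39.9 FPKM in CD80high cells and 47.5 in CD80low cells, 1.19-fold lower in CD80high (1.12 to 1.26). Dusp7, another cytoplasmic phosphatase of ERK, had 8.47 FPKM in CD80high cells and 9.88 in CD80low cells, 1.17-fold lower (1.02 to 1.34). Within a library, the quotient of Dusp6 to Dusp5 was 2.85 in CD80high and 5.24 in CD80low. This pair was chosen after its values were seen. Dusp4 (MKP-2), an inducible nuclear phosphatase, had 21.6 FPKM in CD80high cells and 19.0 in CD80low cells.

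Dusp16, Dusp10 and Dusp8 encode phosphatases known to prefer JNK and p38. Dusp16 (MKP-7) had 48.3 FPKM in CD80high cells and 42.0 in CD80low cells (fold 1.15, 1.10 to 1.201). Dusp10 (MKP-5; chromosome 1, 184013302 to 184075636, plus strand) stood at 11.5 FPKM in CD80high cells and 8.87 in CD80low cells, 1.29-fold higher (1.13 to 1.49). Dusp8 (chromosome 7, 142079490 to 142095843, minus strand) had 1.38 FPKM in CD80high cells and 0.786 in CD80low cells (fold 1.75, 1.25 to 2.55). Dusp9 was listed at 0.0456 FPKM in CD80high cells and 0.0293 in CD80low cells. Over the 9 measured MAP kinase phosphatases the median ratio was 0.18, with 6 higher and 3 lower, while their summed level was 465 FPKM in CD80high cells and 464 in CD80low cells.

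The promoter of Dusp5 is shown because this gene had the highest ratio, and that of Mapk12 because it had the lowest. Each runs from 250 bases before to 50 after the start site in RefSeq's GRCm38.p6 annotation, 5′ to 3′ on the strand of the gene. Capitals mark CArG boxes (the site of serum response factor), TGACGT or its reverse complement (part of the cyclic AMP response element) and the E box CACGTG.
Dusp5, chr19:53528895-53529194, plus strand: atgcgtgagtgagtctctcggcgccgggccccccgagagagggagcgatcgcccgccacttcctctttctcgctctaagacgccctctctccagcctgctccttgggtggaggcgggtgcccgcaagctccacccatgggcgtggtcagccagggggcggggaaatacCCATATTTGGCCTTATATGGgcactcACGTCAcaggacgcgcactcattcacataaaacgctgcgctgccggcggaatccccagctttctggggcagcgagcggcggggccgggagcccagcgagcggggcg
Mapk12, chr15:89140654-89140953, minus strand: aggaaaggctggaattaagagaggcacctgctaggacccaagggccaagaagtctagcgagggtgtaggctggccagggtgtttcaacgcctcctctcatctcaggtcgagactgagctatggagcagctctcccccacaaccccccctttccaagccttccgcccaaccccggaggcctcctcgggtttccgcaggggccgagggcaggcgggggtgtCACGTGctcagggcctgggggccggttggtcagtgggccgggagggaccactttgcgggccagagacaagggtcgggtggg

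The Dusp5 promoter held 2 CArG boxes side by side, at -82 to -73 and -72 to -63 from the start site, and ACGTCA at -56 to -51. Of the 46 measured genes with a promoter in the table, Dusp5 alone held a CArG box. A CArG box was found in 1.63% of all 32851 promoters in the table, and 2 or more in 6 of them. The 46 genes had 57 promoters. The full cyclic AMP response element TGACGTCA was found in 2 of the 57, those of Dusp1 and Dusp8 (3.51%, against 1.79% of all promoters), and TGACGT, which lies within it, in 8 of the 57 (14.04%, against 7.51%). The AP-1 motif TGANTCA was present in 3 of the 57 promoters (5.26%, against 7.81%) and the E box in 5 (8.77%, against 7.15%). The GGGCGG box was present in 40 of the 57 promoters (70.2%), against 35.7% of all promoters. CCGGAAGT, an ETS motif, was found in 2 of the 57 promoters (3.51%, against 3.89%), and GCGTGGGCG, an EGR motif, in none (0.612%). The 57 promoters were those of measured genes, whereas the shares of all promoters were taken without a filter on level. The shares therefore do not compare genes of like level. Both strands were searched, the motifs were chosen after the Dusp5 promoter had been read, and a match describes letters, not binding.

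Atypical dual-specificity phosphatases, many of which act on other substrates than MAP kinases, were the role with the most genes lower in CD80high. Of 14 genes, 8 were measured, and 6 of the 8 were lower, where 53.5% of all measured genes were. Their median ratio was -0.09 as deposited, against -0.02 over all measured genes. After rescaling the median was 0.03 and 5 of the 8 were higher, against 0.12 and 73.8% over all measured genes. Dusp11, an RNA phosphatase, was the most abundant, at 50.4 FPKM in CD80high cells and 50.8 in CD80low cells (fold 0.993, 0.962 to 1.03). Its ratio was 0.14 after rescaling and -0.13 after adjustment for transcript length, where the medians over all measured genes were 0.12 and 0. Dusp22 (JKAP), a regulator of antigen receptor signalling in T cells, had 12.3 FPKM in CD80high cells and 13.8 in CD80low cells (fold 0.891, 0.801 to 0.991). Dusp12 had 12.8 FPKM in CD80high cells and 12.6 in CD80low cells. It shares 891 exon bases with Gm9929 and 474 with Gm26620 on the opposite strand, so its values are uncertain if counting ignored the strand.

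The other atypical genes were under 6 FPKM. Dusp19 had 5.08 FPKM in CD80high cells and 5.45 in CD80low cells, Dusp28 had 4.38 FPKM in CD80high cells and 5.25 in CD80low cells, Dusp3 (VHR) had 1.55 FPKM in CD80high cells and 1.71 in CD80low cells, and Dusp23 had 1.05 FPKM in CD80high cells and 1.25 in CD80low cells. Dusp19 shares 131 exon bases on the same strand with Nup35 (9.64 FPKM in CD80high, 12.7 FPKM in CD80low), so its values are uncertain. Dusp18 (chromosome 11, 3895240 to 3901296, plus strand), a phosphatase found at mitochondria, was higher in CD80high, at 1.87 FPKM in CD80high cells and 1.05 in CD80low cells (fold 1.79, 1.38 to 2.36). Dusp14, named here after its values were seen, was just under the filter, with a mean of 0.945 FPKM. It was listed at 1.37 FPKM in CD80high cells and 0.515 in CD80low cells, and at a fold of 2.67 (1.51 to 5.01) it rests on about 46 and 17 fragments.

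Among the adaptor and other genes, Mapk8ip3 (JIP3), a scaffold that binds JNK and kinesin motors, had 37.7 FPKM in CD80high cells and 31.4 in CD80low cells (fold 1.203, 1.15 to 1.26). It shares exon bases with Mrps34 and Nme3 on the opposite strand and with Eme2 on the same strand, so its values are uncertain. Mapk1ip1l had 38.2 FPKM in CD80high cells and 32.6 in CD80low cells (fold 1.17, 1.10 to 1.24), and Mapk1ip1 had 33.7 FPKM in CD80high cells and 33.4 in CD80low cells. Mapk8ip1 and Mapk8ip2 were at or under 0.124 FPKM in both libraries.

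In the authors' deposited table, 57 of the 73 genes had been tested. In that source, the authors' deposited table, a p-value of at most 0.05 was listed for 2 of the 57, Dusp5 (0.0295) and Dusp18 (0.0406), where 2.4% of all 10814 tested rows were. The next in the authors' deposited table were Mapk11 (0.0572) and Dusp8 (0.0707). None of the 57 had a q-value of at most 0.05, and the smallest in the authors' deposited table was 0.999. With 1 library per group, such a test compares the libraries and not the populations.

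The genes that surround the cascade also differed little. A list of 100 such genes, from Ras and its exchange factors to the genes that ERK induces, had 85 measured members with a median ratio of 0.05, 50 of them higher and 35 lower in CD80high. None was past 1.5-fold on the ratio scale, though by the quotient of the FPKM values Spred2 and Styx were more than 1.5-fold lower in CD80high. At 1.2-fold on the ratio scale there were 7 higher and 5 lower of the 85, named here after their values were seen. With 8.31% of all measured genes higher and 11.4% lower by that size, these counts were no larger than the background. The higher ones were Ets2 (30.6 FPKM in CD80high, 21.8 FPKM in CD80low) and Elk4 (49.4 and 38.6 FPKM), both transcription factor genes of the ETS family, Egr1, an immediate early gene driven by ERK (70.1 and 50.6 FPKM), and Ptpn22, a phosphatase of antigen receptor signalling (45.02 and 35.8 FPKM). They also included the Ras exchange factor gene Sos1 (10.3 FPKM in CD80high, 8.30 FPKM in CD80low), the transcription factor gene Mef2d (84.7 and 70.1 FPKM) and Rps6ka1, which encodes the ERK-activated kinase RSK1 (65.1 and 53.8 FPKM).

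The lower ones included Rasgrp3, which loads Ras downstream of the B cell receptor (51.9 FPKM in CD80high, 67.5 FPKM in CD80low), and Mapkapk5, a kinase that ERK3 activates (21.9 and 28.03 FPKM). The others were Rras2, a Ras family gene (42.6 and 51.5 FPKM), Spred2, an inhibitor of Ras signalling (0.957 and 1.56 FPKM), and Styx, a catalytically dead relative of the dual-specificity phosphatases (2.47 and 3.85 FPKM). Over the 16 measured Ras and exchange factor genes the median was -0.02. Rasgrp2, a relative of Rasgrp3 with a higher level, had 213 FPKM in CD80high cells and 201 in CD80low cells, and the adaptor gene Grb2 151 and 163 FPKM. The 12 measured Ras inhibitors had a median of 0.02. Dok3 had 215 FPKM in CD80high cells and 227 in CD80low cells, and Rasal3 91.8 and 87.0 FPKM.

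The measured genes of the Raf family, the MAP3K tier of the ERK branch, included Araf (82.5 FPKM in CD80high, 70.8 FPKM in CD80low). The 9 measured kinases and partners of the tiers with other names were all higher in CD80high (median 0.15), where 46.4% of all measured genes were. Among them were Taok2 (54.1 and 46.0 FPKM) and Tab2 (43.9 and 41.7 FPKM), while Ripk1 was practically level (13.58 and 13.57 FPKM). The scaffold genes had a median of 0.00, with Iqgap1 at 134 FPKM in CD80high cells and 119.9 in CD80low cells and Lamtor2 at 95.8 and 111 FPKM. Downstream kinases had a median of 0.06, with Mknk2 at 204 FPKM in CD80high cells and 196 in CD80low cells, and 7 of 10 were higher.

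Among transcription factor genes whose products MAP kinases phosphorylate, Jun had 662 FPKM in CD80high cells and 602 in CD80low cells, and Ets1 219 and 245 FPKM. Of the genes that ERK induces, Fos had 632 FPKM in CD80high cells and 616 in CD80low cells, and Myc 323 and 281 FPKM. Of the 9 measured genes listed as other phosphatases of MAP kinases, 2 were higher and 7 lower (median -0.03). That list also holds Ptpn22, a phosphatase of antigen receptor signalling, and the catalytically dead Styx. Ppp5c had 59.3 FPKM in CD80high cells and 57.8 in CD80low cells. Fos, Egr1, Ier2 and Jun also stand on the list of handling and stress genes, and Ets1 on that of follicular B cell markers.

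The labelled cell type was present in both libraries: all 8 B cell markers and all 13 marginal zone markers were measured. The B cell markers summed to 4743 FPKM in CD80high cells and 5229 in CD80low cells, with 3 of the 8 higher in CD80high and 5 lower. Cr2, the most abundant marginal zone marker, had 807 FPKM in CD80high cells and 837 in CD80low cells. It alone of the 13 was lower in CD80high. Marginal zone markers summed to 2674 FPKM in CD80high cells and 2476 in CD80low cells, with 12 of 13 higher in CD80high, and follicular B cell markers to 1759 and 1884 FPKM, with 2 of 11 higher. The most abundant follicular marker, Klf2, was among the higher ones (692 FPKM in CD80high, 628 FPKM in CD80low). Among the lower ones, Fcer2a had 58.6 and 118.5 FPKM and Vpreb3 28.6 and 52.8 FPKM. Cd80 had 4.13 FPKM in CD80high cells and 1.32 in CD80low cells, a fold of 3.12 (2.27 to 4.35). Summed markers of other cells were low but mostly higher in CD80high. They came to 38.9 FPKM in CD80high cells and 16.7 in CD80low cells for natural killer cells (9 of 11 higher), 37.8 and 17.98 FPKM for macrophages (16 of the 16 above 0), 30.5 and 22.3 FPKM for T cells (13 of 13), and 4.596 and 0.585 FPKM for neutrophils (8 of the 8 above 0). Sums were 8.44 and 5.43 FPKM for erythroid markers (8 of the 8 above 0 higher), 33.01 and 37.5 FPKM for dendritic markers (7 of 9), 4.17 and 4.63 FPKM for platelet markers (6 of 7) and 73.4 and 74.3 FPKM for endothelial or stromal markers (10 of 12). Most of the dendritic sum was Bst2 (27.1 FPKM in CD80high, 33.5 FPKM in CD80low). Most of the platelet sum was Itgb3 (3.47 and 4.45 FPKM), and most of the endothelial or stromal sum Pecam1 (69.6 and 72.3 FPKM). Of the defining markers, Cd3e, Cd14, Camp, Ngp, Retnlg, Slc4a1 and Pf4 were among those at 0 in CD80low, and Fcgr1, Lyz1, Ly6g, Cxcr2, Xcr1 and Treml1 were at 0 in both libraries. In bulk samples fewer cells of a type and less RNA per cell cannot be told apart, and the part of these cells in the values of low genes such as Dusp8, Dusp14 and Dusp18 was not tested.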

How the data were processed

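RNA of CD80high and CD80low marginal zone B cells was sequenced in 2 libraries, 1 per group. Per the submitters' processing notes, the tools were Cufflinks 2.2.1, Cuffdiff, Cuffnorm, STAR 2.6 and FastQC 0.11.5, with build mm10. The deposited expression values were taken as FPKM from those tools, since the headers name no unit, and low values times transcript length fell on even steps. The p-value and q-value columns are the authors', per the file headers. The table had 21853 rows, all marked protein coding and all matched to GENCODE M21 (GRCm38, the assembly of mm10) by Ensembl identifier, and 24 repeated symbols were summed. The second sheet was not used here.

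The ratio used a pseudocount of 1 FPKM, which understates the differences of low genes, and a filter of a mean of at least 1 FPKM. Every measured member was named with both values, except 1 that is not reported here and that stays in counts and medians. Folds with intervals were set for members at least 1.5-fold on the ratio scale, of which there were none, and for the 2 most abundant of each role. Folds of further members, and names of members under the filter, were added after their values were seen. Pathway genes named were the 2 most abundant of each sublist, as none reached 1.5-fold. A size of 5/4 was first used for the smaller count and was replaced by 1.2-fold, with the same members past it. Members and lists were chosen with earlier results of these data known.

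With 1 library per group no test or p-value was computed. Fragments per library were estimated from low values among 1664 genes with 1 transcript longer than 2000 nucleotides. The low values used were 171 in CD80high and 168 in CD80low. Fragments of a gene were estimated from the median length of its coding transcripts. The estimate was adopted with values known, and on simulated data it came out slightly below the true fragment number. Versions were scipy 1.17.1, pandas 2.3.3, numpy 2.4.6 and matplotlib 3.10.9 under Python 3.11.15. Alternatives were another pseudocount, filter, scaling, centring, a length adjustment and repeated symbols kept apart.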

Additional observations from a re-analysis of the deposited data

How the results depend on the processing

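No paired analysis was possible because a population had only 1 library. No gene reached 2-fold under any alternative for which this was counted. The count at least 1.5-fold was 4 with a pseudocount of 0.1, 1 with no filter (Dusp14), 1 after rescaling to the mean FPKM total, 1 after centring on the median of all genes, and 9 at 1.2-fold, a size added after the data were seen. Rescaling gave medians of 0.20 for all members, 0.13 for ERK, -0.0274 for JNK, -0.35 for p38, 0.19 for MAP2K, 0.22 for MAP3K, 0.32 for MAP4K, 0.32 for MAP kinase phosphatases, 0.0262 for atypical phosphatases and 0.37 for adaptors, beside 0.12 for all genes. The p38 median was -0.19 with a pseudocount of 5, -0.22 with a filter of 5 FPKM and -0.24 with no filter, and the adaptor median 0.0251 with no filter. Of 120 values for 24 genes, 95 stayed within the counting interval and 25 did not, 16 of these after rescaling, and 9 changed sign. Over these alternatives the ratio of Dusp5 was between 0.44 and 0.72, of Mapk6 between 0.32 and 0.53, of Mapk11 between -0.53 and -0.35 and of Mapk12 between -0.85 and -0.19. With no replicate only counting error is known, and it is wide for genes near 1 FPKM.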
